A study of Homo sapiens with 6 samples.

Results

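Tumor vessels are recruited by secreted proteins, and 10 genes for such proteins, their receptors and an inhibitor were followed here in A2780 cells, a human ovarian cancer cell line. The set comprised the VEGF ligands VEGFA, VEGFB, VEGFC and PGF, the angiopoietins ANGPT1 and ANGPT2, the angiopoietin-like gene ANGPTL4, the VEGF receptors FLT1 and KDR, and THBS1, a secreted angiogenesis inhibitor. They were chosen by name, with earlier results of these data known, and all 10 were found among the 44591 genes listed in the files. The study asked which pathways change in A2780 cells that receive recombinant human CRMP2 (r-CRMP2), a microtubule-associated protein that cancer associated fibroblasts release. Polyadenylated RNA was sequenced from 3 untreated samples and from 3 samples given 40 ng/ml r-CRMP2, all at 48 h. Both groups are wild type for genotype per the labels and were grown in DMEM with serum, and the labels give no vehicle for the untreated group. A2780 is 1 cell line grown alone, so the values describe transcripts of the cancer cells and not of vessels.

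VEGF ligands bind receptor tyrosine kinases on endothelial cells: VEGFA acts through KDR and FLT1, VEGFB and PGF bind FLT1, and VEGFC acts mainly through FLT4 on lymphatic endothelium. Angiopoietins act through the receptor TEK, where ANGPT1 is known as an agonist that stabilizes vessels and ANGPT2 as its context-dependent antagonist. ANGPTL4 is a secreted inhibitor of lipoprotein lipase. VEGFA and ANGPTL4 are both known hypoxia-responsive genes. THBS1 encodes thrombospondin 1, which restrains angiogenesis through the receptors CD36 and CD47.

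The libraries held between 21888530 and 25711353 counts. Within a gene, levels are given as CPM, counts scaled to a common library total after TMM, a correction for differences in RNA composition between libraries. Between genes, levels are given as TPM, which is also divided by gene length but carries no TMM correction. The TMM factors lay between 1.10 and 1.12 in untreated and between 0.878 and 0.922 in r-CRMP2 libraries. The scaling therefore matters for small differences: over all genes the median log2 fold change was -0.03 after TMM but -0.34 when only the library size was used. Higher genes made up 48.4% of the calls after TMM and 20.4% when only the library size was used. Differences were tested by edgeR's quasi-likelihood method and called at a Benjamini-Hochberg adjusted p under 0.05. A stricter call also needed a log2 fold change beyond 1 in either direction, and "both thresholds" refers to that pair. Nothing in the labels says that the 3 samples of a group came from separate cultures, so the p-values measure only the spread between these samples, which may be technical.

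Of the 10 genes, 7 passed the filter on low counts: VEGFA, VEGFB, VEGFC, PGF, ANGPT1, ANGPTL4 and THBS1. ANGPT2, FLT1 and KDR did not. Because the set was chosen with earlier results of these data known, the shares over all genes given below are a description only. Of the 7 tested, 5 rose with r-CRMP2, where 28.2% of all 16222 genes tested were higher and 58.2% were called in either direction. One (THBS1) was lower, where 30.1% of all genes were, and ANGPT1 did not pass. The 2 genes past both thresholds were ANGPTL4 and VEGFA, against 5.12% of all genes higher and 14% past both thresholds in either direction. None was lower past both thresholds, where 8.86% of all genes were. The groups did not overlap for 6 of the 7, where 64.2% of all genes tested did not. Of these 6, r-CRMP2 was above in 5 (30.9% of all genes) and below in 1 (33.3% of all genes). The median log2 fold change of the 7 tested was 0.65 (0.34 with library size alone, which made the same numbers of calls). In bulk RNA, a change in the number of cells that transcribe a gene and a change in RNA per cell cannot be told apart.

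**Figure D1:**
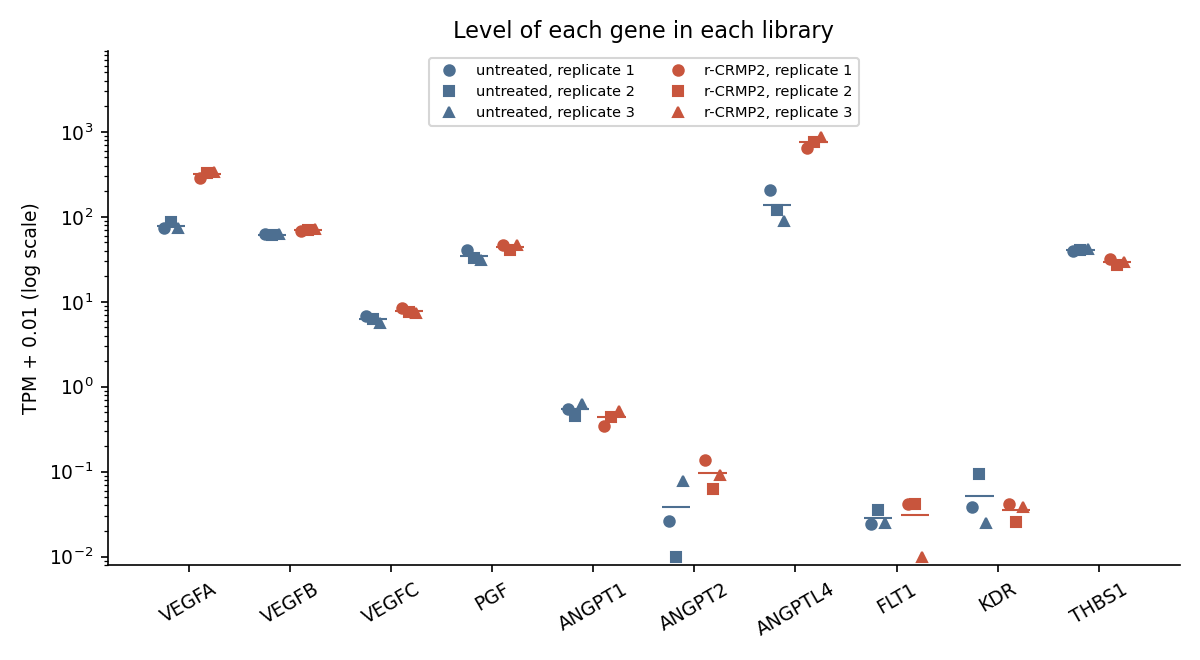
Deposited TPM plus 0.01 on a log axis for the 10 genes, with 1 point per library (blue untreated, red r-CRMP2; circle, square and triangle for replicates 1, 2 and 3) and a line at each group mean. VEGFA and ANGPTL4 stand apart between the groups, and ANGPT1, ANGPT2, FLT1 and KDR lie below 1 TPM in every library.

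VEGFA, the main growth factor for endothelial cells (chromosome 6, 43737946 to 43754224 on the plus strand, deposited hg19 coordinates), had the second largest rise of the set. Its levels were 116, 131 and 115 CPM in untreated replicates 1, 2 and 3, and 529, 672 and 650.0 CPM in r-CRMP2 replicates 1, 2 and 3. The groups did not overlap, and the lowest r-CRMP2 library was 4.03 times the highest untreated library. The log2 fold change was 2.35 (SE, the standard error, 0.12, edgeR adjusted p = 9.93e-14), a 5.11-fold rise. VEGFA ranked 113 from the top among the 16222 log2 fold changes. With library size alone it was 2.04, and leaving out any single library kept it between 2.30 and 2.46.

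An unnamed antisense gene listed as ENSG00000272114.1 lies within VEGFA (chromosome 6, 43738166 to 43738353, minus strand). It had 14, 14 and 11 counts in untreated and 45, 49 and 41 counts in r-CRMP2 libraries, a log2 fold change of 2.10 (edgeR adjusted p = 1.34e-05). These counts were small beside those of VEGFA, which had between 3154 and 14929 counts in a library. Whether the counting used strand is not given in the sources used here, so reads of the antisense gene and of VEGFA cannot be told apart. Antisense genes also overlap VEGFC, with at most 2 counts in a library, and THBS1, with between 2 and 16 counts.

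The 3 other VEGF ligands rose less, by under 2-fold each. PGF, placental growth factor (chromosome 14, 75408533 to 75422467, minus strand), had 32.2, 25.1 and 24.2 CPM in the untreated replicates and 43.4, 42.0 and 45.1 CPM with r-CRMP2. The groups did not overlap, and untreated replicate 1 came nearest to the r-CRMP2 libraries. The log2 fold change of PGF was 0.68 (SE 0.13, edgeR adjusted p = 4.5e-06). VEGFC, the lymphatic ligand (chromosome 4, 177604685 to 177713899, minus strand), had 5.90, 5.34 and 4.79 CPM in untreated and 8.66, 8.64 and 7.84 CPM in r-CRMP2 libraries. Again the groups did not overlap, with a log2 fold change of 0.65 (SE 0.10, edgeR adjusted p = 0.000426). VEGFB, a ligand of FLT1 (chromosome 11, 64002056 to 64006736, plus strand), had 46.7, 44.8 and 45.8 CPM in untreated and 59.9, 68.1 and 65.6 CPM in r-CRMP2 libraries. Its untreated libraries were nearly level, and the log2 fold change was 0.49 (SE 0.06, edgeR adjusted p = 5.42e-06). With library size alone these 3 rises shrank to 0.37 for PGF, 0.34 for VEGFC and 0.18 for VEGFB on the log2 scale and still passed (edgeR adjusted p = 0.00251, 0.0381 and 0.0242).

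**Figure D2:**
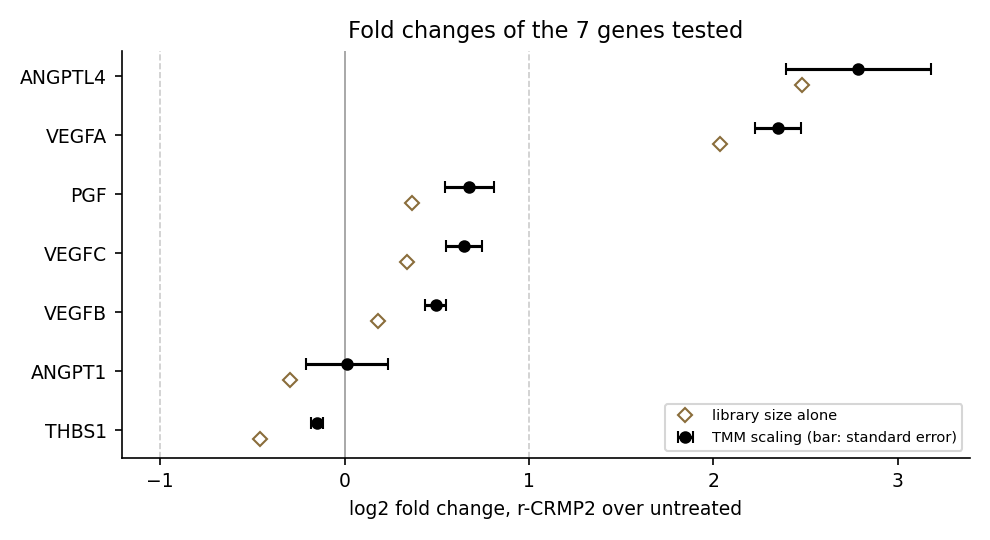
Log2 fold change of r-CRMP2 over untreated for the 7 genes tested, with TMM scaling (black points, bars of 1 standard error, n = 3 per group) and with library size alone (open diamonds), and dashed lines at -1 and 1. ANGPTL4 (2.79) and VEGFA (2.35) lie past 1 with either scaling, and ANGPT1 changes sign between them (0.01 and -0.30).

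In TPM, the 4 VEGF ligands together made up 180.7 ± 6.48 TPM in untreated cells and 438 ± 29.6 TPM with r-CRMP2 (SD, n = 3 per group). VEGFA supplied 92.7% of this difference of 257 TPM, which carries no TMM correction. The other ligands rose less in TPM than in CPM: VEGFB went from 61.8 to 69.4 TPM but from 45.8 to 64.5 CPM. The share of VEGFA in the VEGF ligand TPM was 40.3%, 46.1% and 43.0% without r-CRMP2 and 70.0%, 73.6% and 73.0% with it. The share of VEGFB went from 34.3% ± 1.45 to 15.9% ± 0.627, that of PGF from 19.1% ± 2.53 to 10.1% ± 1.14, and that of VEGFC from 3.44% ± 0.236 to 1.79% ± 0.249 (SD, n = 3 per group). The shares of these 3 genes were thus lower with r-CRMP2 although the CPM of each rose.

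**Figure D3:**
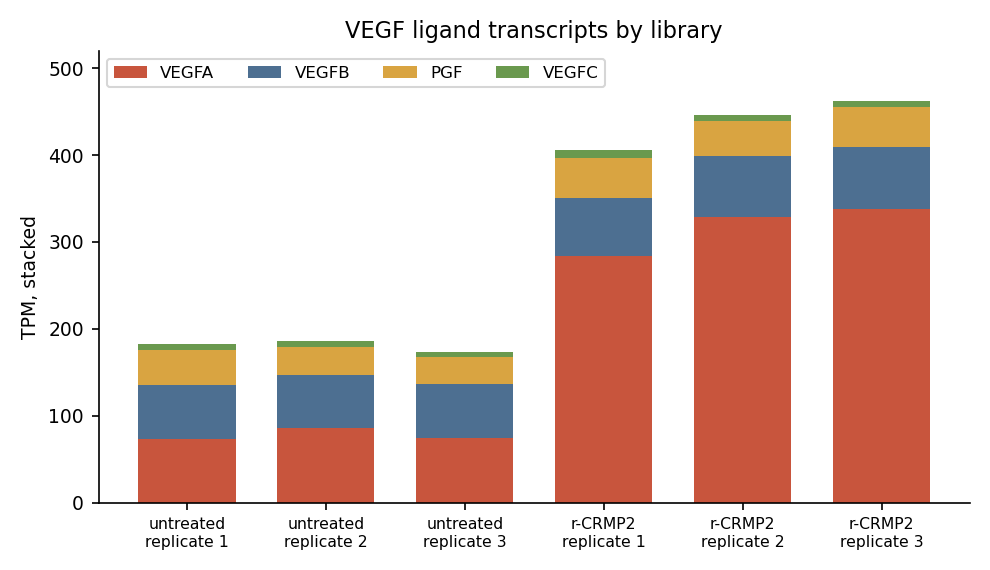
Stacked TPM of VEGFA, VEGFB, PGF and VEGFC in each of the 6 libraries. The 3 untreated columns reach between 173 and 186 TPM and the 3 r-CRMP2 columns between 405 and 463 TPM, and most of the added height is VEGFA.

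ANGPTL4 (chromosome 19, 8429011 to 8439259, plus strand) was the most abundant of the 10 genes per length in both groups and had the largest rise. Its levels were 164, 92.4 and 68.7 CPM in untreated replicates 1, 2 and 3, and 610.2, 787 and 847 CPM in r-CRMP2 replicates 1, 2 and 3. Untreated replicate 1 stood well above the other untreated libraries, yet the lowest r-CRMP2 library was still 3.73 times that level. The log2 fold change was 2.79 (SE 0.39, edgeR adjusted p = 9.56e-10), a 6.91-fold rise that ranked 64 from the top. Without untreated replicate 1 it was 3.22, and without untreated replicate 3 it was 2.55. The spread of ANGPTL4 between untreated libraries, a coefficient of variation of 45.7%, was far above the 1.86% that counting alone would give. For VEGFA these values were 7.38% and 1.77%.

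The start regions of the set can be compared in RefSeq sequence (GRCh38.p14). Of the 10 genes, 7 had a window in the table used (VEGFB, VEGFC, PGF with 2 starts, ANGPTL4, FLT1, KDR and THBS1), and VEGFA had no entry. The 250 bases before the start are printed 5′ to 3′ on the gene's strand for the largest rise (ANGPTL4, chr19:8363905-8364154), the smallest rise (VEGFB, chr11:64234334-64234583) and the gene that was lower (THBS1, chr15:39580829-39581078), all on the plus strand. Capitals mark 4 short motifs on either strand: ACGTG and GCGTG, the core letters of the hypoxia response element, GGGCGG, the GC box, and TATAAA, the TATA box. Matches can overlap, as GCGTG and GGGCGG do in THBS1.
ANGPTL4: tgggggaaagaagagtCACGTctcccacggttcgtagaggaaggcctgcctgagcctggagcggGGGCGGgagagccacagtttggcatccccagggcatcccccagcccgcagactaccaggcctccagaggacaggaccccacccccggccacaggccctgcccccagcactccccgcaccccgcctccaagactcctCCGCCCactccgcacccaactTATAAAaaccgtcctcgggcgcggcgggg
VEGFB: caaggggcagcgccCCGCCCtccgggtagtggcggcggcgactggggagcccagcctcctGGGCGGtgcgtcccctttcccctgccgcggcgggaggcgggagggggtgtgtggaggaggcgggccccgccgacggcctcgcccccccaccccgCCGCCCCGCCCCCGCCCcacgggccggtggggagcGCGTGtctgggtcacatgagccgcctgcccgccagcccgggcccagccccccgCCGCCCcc
THBS1: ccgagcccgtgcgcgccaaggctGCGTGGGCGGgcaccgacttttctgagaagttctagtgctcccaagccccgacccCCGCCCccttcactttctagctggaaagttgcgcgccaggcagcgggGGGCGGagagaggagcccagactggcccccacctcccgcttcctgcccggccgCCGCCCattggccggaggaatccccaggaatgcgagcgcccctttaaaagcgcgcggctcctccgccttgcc

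ANGPTL4 was the only one of the 7 genes with ACGTG in its window, beginning 234 bases before the start, and its TATAAA begins 29 bases before the start. Of all 35116 windows in the table, 18.5% hold ACGTG and 10.7% hold TATAAA. The letters GCGTG were found in VEGFB, VEGFC, FLT1, THBS1 and 1 of the PGF windows, and in 32.2% of all windows. GGGCGG was found in every window of these 7 genes, with 6 matches in VEGFB, and in 42.6% of all windows. The palindrome TGACGTCA, the cyclic AMP response element, was found in FLT1 and in 1.65% of all windows. These are letter matches near annotated starts only, and say nothing of binding or of elements farther away.

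THBS1 (chromosome 15, 39873280 to 39891119, plus strand) was slightly lower with r-CRMP2. Its levels were 121, 121 and 123 CPM without r-CRMP2 and 114, 106 and 108 CPM with it, so the groups did not overlap. The log2 fold change was -0.15 (SE 0.03, edgeR adjusted p = 0.0402), close to the threshold. The call was lost in DESeq2 (log2 fold change -0.13, adjusted p = 0.0783) and whenever any library but r-CRMP2 replicate 1 was left out (edgeR adjusted p up to 0.139), and the difference was larger with library size alone (-0.46, edgeR adjusted p = 6.72e-06).

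ANGPT1 (chromosome 8, 108261710 to 108510283, minus strand) had 28, 20 and 31 counts in untreated and 16, 21 and 27 counts in r-CRMP2 libraries. The groups overlapped, and the log2 fold change was 0.01 (SE 0.22, edgeR adjusted p = 0.977). Leaving out any single library moved it between -0.13 and 0.19. ANGPT2 (chromosome 8, 6357172 to 6420784, minus strand) had 1, 0 and 4 counts in untreated and 7, 3 and 5 counts in r-CRMP2 libraries. These sum to 5 counts (95% exact Poisson interval 1.62 to 11.7) and 15 counts (8.40 to 24.7), intervals that overlap and cover counting error only. The libraries of the groups did not overlap in CPM after TMM but did by library size alone, and the filter left ANGPT2 out of the main test. ANGPT2 lies within MCPH1, a gene of the opposite strand with between 315 and 579 counts in a library, and without strand the few ANGPT2 reads could belong to either gene and cannot be told apart.

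The 2 VEGF receptors of the set, FLT1 and KDR, were barely transcribed. FLT1, which encodes VEGF receptor 1 (chromosome 13, 28874483 to 29069265, minus strand), had 2, 3 and 2 counts in untreated and 4, 4 and 0 counts in r-CRMP2 libraries. The count of 0 allows up to 3 counts, or 0.117 CPM by library size. KDR, which encodes VEGF receptor 2 (chromosome 4, 55944426 to 55991762, minus strand), had 2, 5 and 1 counts in untreated and 2, 1 and 2 counts in r-CRMP2 libraries. The groups overlapped for both receptors. The sums were 7 counts (95% exact Poisson interval 2.81 to 14.4) and 8 counts (3.45 to 15.8) for FLT1, and 8 counts (3.45 to 15.8) and 5 counts (1.62 to 11.7) for KDR, in untreated and r-CRMP2 libraries, so that a difference was not detectable at this depth.

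The order of the levels, in TPM, was led by ANGPTL4, VEGFA and VEGFB in both groups. In untreated cells ANGPTL4 had 138 ± 61.0 TPM, VEGFA 78.0 ± 6.65 TPM and VEGFB 61.8 ± 0.471 TPM (SD, n = 3). THBS1 with 40.9 ± 0.786 TPM and PGF with 34.6 ± 5.03 TPM overlapped in range, and VEGFC followed at 6.23 ± 0.583 TPM (SD, n = 3). With r-CRMP2, ANGPTL4 reached 761 ± 112 TPM and VEGFA 317 ± 28.9 TPM, above 99.6% and 99.0% of all genes listed (SD, n = 3). VEGFB then followed with 69.4 ± 2.06 TPM, and PGF at 44.3 ± 3.24 TPM now stood above THBS1 at 29.4 ± 2.46 TPM without overlap (SD, n = 3). ANGPT1 was at 0.533 ± 0.0846 and 0.429 ± 0.0881 TPM in the untreated and r-CRMP2 groups (SD, n = 3). ANGPT2, FLT1 and KDR had group means of at most 0.0867 TPM, and neighbours among them mostly overlapped.

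Ratios within a library do not depend on the scaling between libraries. The TPM of VEGFA over that of THBS1 was 1.84, 2.09 and 1.80 without r-CRMP2 and 8.87, 12.1 and 11.6 with it. VEGFA over VEGFB was 1.26 ± 0.118 without and 4.56 ± 0.292 with r-CRMP2, and VEGFA over PGF 2.29 ± 0.418 and 7.19 ± 0.975 (SD, n = 3 per group), with no overlap between the groups in any of these 3 ratios. ANGPTL4 over VEGFA was 2.79, 1.40 and 1.18 in untreated and 2.29, 2.32 and 2.59 in r-CRMP2 libraries, with untreated replicate 1 above all others. Over the 4 ratios, the exact permutation test (two-sided, on log2 ratios) gave p = 0.1 for each of the first 3 and p = 0.4 for ANGPTL4 over VEGFA (adjusted p = 0.133 and 0.4). With 3 libraries against 3, 0.1 is the smallest p this test can give.

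**Figure D4:**
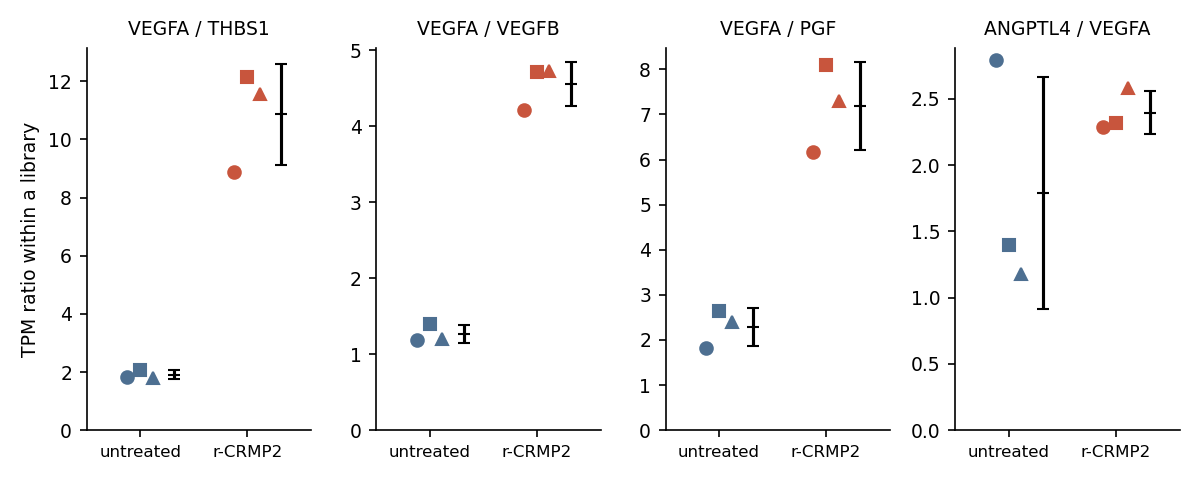
TPM of 1 gene over another within each library (symbols as replicates 1, 2 and 3), with the mean and SD of each group in black. VEGFA over THBS1, VEGFB and PGF is higher in all 3 r-CRMP2 libraries, while ANGPTL4 over VEGFA overlaps between the groups, with untreated replicate 1 at 2.79.

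The profiles most like those of VEGFA and ANGPTL4 were sought among 9393 genes with at least 10 CPM on average, as the smallest root mean square difference of log2 CPM over the 6 libraries after subtracting the untreated mean. For VEGFA these were BHLHE40 (0.0523), a circadian and hypoxia-responsive repressor, RHOB (0.0869), a small GTPase, and TIPARP (0.0952), an ADP-ribosyltransferase. Their log2 fold changes were 2.32, 2.43 and 2.40. For ANGPTL4 the nearest were SLC2A3 (0.269), which encodes the glucose transporter GLUT3, HILPDA (0.282), a lipid droplet protein, and MT1X (0.289), a metallothionein. The distances for ANGPTL4 were larger than those for VEGFA. The likeness is a description over 6 libraries in 2 groups, so it rests largely on a similar fold change.

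Other receptors and partners of these ligands were examined from lists written by hand, whose counts stand against the 28.2% of all genes called higher and the 30.1% called lower. Among 3 tested genes of the VEGF family and receptors outside the set, NRP1, a co-receptor of VEGFA, rose (log2 fold change 0.43, SE 0.07, edgeR adjusted p = 0.00015), while FLT4 and NRP2 did not pass. NRP1 did not pass by library size alone (0.12, edgeR adjusted p = 0.208). Of the TIE receptors and their partners, PTPRB, a phosphatase that restrains TEK, fell from 16.4 ± 0.492 to 7.09 ± 1.14 CPM (SD, n = 3 per group), or -1.21 on the log2 scale (edgeR adjusted p = 6.3e-08). TEK itself had a log2 fold change of -0.28 and did not pass (edgeR adjusted p = 0.47), and TIE1 and ANGPT4 were under the filter. Of 3 tested genes for VEGFC processing, PCSK7, a proprotein convertase, fell (log2 fold change -0.92, edgeR adjusted p = 3.41e-08) and FURIN and PCSK5 did not pass. ANGPTL2 and ANGPTL6, the other angiopoietin-like genes tested, did not pass. With library size alone, 1 of the 3 VEGF family genes, 2 of the 3 VEGFC processing genes and ANGPTL2 (-0.84, edgeR adjusted p = 0.0361) were called lower.

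Around ANGPTL4, 1 of 6 tested genes of the lipoprotein lipase axis was called: PPARA, a fatty acid sensing nuclear receptor, fell from 39.7 ± 4.43 to 23.0 ± 3.67 CPM (SD, n = 3 per group; log2 fold change -0.79, edgeR adjusted p = 2.83e-06). LPL, the enzyme that ANGPTL4 inhibits, had 139 and 106 TPM in untreated and r-CRMP2 cells and a log2 fold change of -0.06 (edgeR adjusted p = 0.393). All 6 were called lower by library size alone. Around THBS1, its receptors CD36 and CD47 rose by 0.24 and 0.27 on the log2 scale (edgeR adjusted p = 0.00168 and 0.0143), and THBS3 did not pass. By library size alone CD36 and CD47 turned negative (-0.07 and -0.04) and did not pass, and THBS3 was called lower (-0.18, edgeR adjusted p = 0.0234).

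Of 17 tested genes of a list of other secreted angiogenic ligands, 8 rose and 3 fell (28.2% and 30.1% of all genes), with a median log2 fold change of 0.18 against -0.03 over all genes. CXCL8 (interleukin-8) rose from 3.21 ± 0.620 to 15.5 ± 4.24 CPM, EFNA1 (ephrin A1) from 58.8 ± 2.72 to 274 ± 39.3 CPM and ANG (angiogenin) from 3.48 ± 0.865 to 10.0 ± 1.53 CPM (SD, n = 3 per group). These were log2 fold changes of 2.26, 2.22 and 1.52 (largest edgeR adjusted p = 3.94e-07), beside 2.35 for VEGFA. CTGF, a matrix-associated growth factor, fell from 68.6 ± 18.9 to 14.7 ± 1.41 CPM (SD, n = 3 per group; log2 fold change -2.23, edgeR adjusted p = 2.21e-10). Of 6 tested genes in the list of secreted angiogenesis inhibitors other than THBS1, 2 rose and 2 fell. The list holds both vasohibins, of which VASH1 is known as an inhibitor while VASH2 is known to promote angiogenesis. VASH1 and VASH2 both fell, with log2 fold changes of -1.16 and -1.36 (largest edgeR adjusted p = 3.57e-05). ADAMTS1, a protease that can bind VEGFA, rose by 0.93, and COL18A1, which carries endostatin, rose by 0.24 but was at -0.07 with library size alone. With library size alone, 6 of the 17 ligands were higher and 6 lower, and 1 of the 6 genes in the inhibitor list was higher and 3 lower.

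In the list of VEGF receptor signalling genes, 12 of 38 tested rose and 7 fell, where 28.2% of all genes rose and 30.1% fell, and the median log2 fold change was 0.04 against -0.03 over all genes. Past both thresholds, SHB, an adaptor that binds KDR, rose (log2 fold change 1.34), and SH2D2A, another KDR adaptor (-1.18), and CASP9, an initiator caspase (-1.14), fell (largest edgeR adjusted p = 1.49e-06). By library size alone, 4 of the 38 were higher and 25 lower. Of 11 regulators of the VEGFA transcript, 7 rose and 2 fell. EPAS1, which encodes HIF-2α, rose from 156 ± 15.4 to 331 ± 13.0 CPM (SD, n = 3 per group; log2 fold change 1.08, edgeR adjusted p = 2.68e-10). ZFP36L1 and ZFP36, which promote decay of AU-rich transcripts, rose by 0.90 and 0.72, and SP1, a GC box factor, by 0.54. By library size alone 5 were higher and 4 lower, and EPAS1 was at 0.77.

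**Figure D5:**
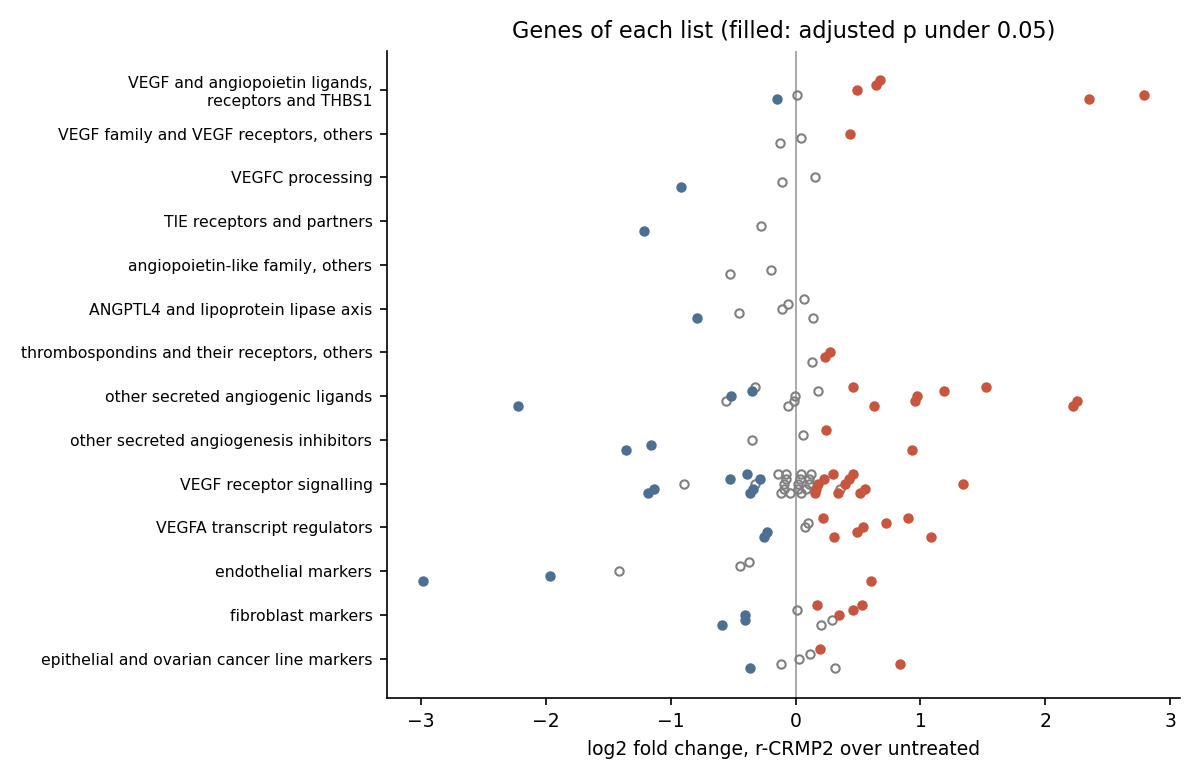
Log2 fold change of each tested gene in 14 groups, the 10-gene set on top, with filled points at an adjusted p under 0.05 (red higher, blue lower) and open points otherwise. The angiogenic ligands spread from -2.23 to 2.26, and the VEGF receptor signalling genes from -1.18 to 1.34.

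The labelled cell type was checked against markers. The keratins KRT8 and KRT18 were at 1362 and 1986 TPM and VIM at 1640 TPM in untreated cells, while the epithelial and ovarian markers CDH1, WFDC2 and WT1 were near 0, with group means of at most 0.169 TPM. Of the 10 epithelial and ovarian cancer line markers, 7 were at 1 TPM or more on average. MUC16 was at 2.38 TPM in untreated and 1.48 TPM in r-CRMP2 cells. Of 7 tested genes in the list of epithelial and ovarian cancer line markers, which includes VIM, 2 rose and 1 fell (1 and 3 with library size alone). The 2 that rose were KRT18 and VIM, with log2 fold changes of 0.20 and 0.84. The 1 that fell was MUC16 (log2 fold change -0.36, edgeR adjusted p = 0.0133). With library size alone KRT18 was at -0.11 and did not pass, so only VIM (0.53) was higher. Of 10 endothelial markers, 8 were under 1 TPM on average, VWF at 0.127 and PECAM1 at 0.452 TPM in untreated cells. Their summed TPM lay between 25.3 and 27.3 in untreated and between 24.2 and 25.9 in r-CRMP2 libraries, most of it EGFL7. One of the 6 endothelial markers tested rose and 2 fell: EGFL7 rose by 0.61, and CDH5 and MMRN2, at 3.11 and 1.75 TPM in untreated cells, fell, with log2 fold changes of -1.96 and -2.98. Of 11 fibroblast markers, 10 were at 1 TPM or more, COL1A1 the highest at 172 and 104 TPM in untreated and r-CRMP2 cells. Of 10 tested, 4 rose and 3 fell (none rose and 4 fell with library size alone). The largest log2 fold changes among these were those of POSTN (-0.59), LUM (0.53), PDGFRA (0.46) and PDGFRB (-0.41). The summed TPM of the 11 fibroblast markers, which carries no TMM correction, was lower with r-CRMP2. It lay between 280 and 320 in untreated and between 200 and 214 in r-CRMP2 libraries. After TMM the median log2 fold change of the 10 tested was 0.19, and COL1A1 was at -0.41. The part of this difference in summed TPM in the results above was not tested.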

How the data were processed

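Polyadenylated RNA of 3 untreated and 3 r-CRMP2-treated A2780 samples was sequenced with paired ends. Per the file headers, the authors deposited for each library raw counts per gene and TPM. The submitters' processing notes name FastQC, HISAT2, DESeq2 and hg19, and the counting tool, annotation and strand setting are not given in the sources used here. Recomputing TPM from the counts and gene lengths gave the deposited values to within 4.72e-06. Counts were analysed with edgeR 4.0.16 (limma 3.58.1, R 4.3.3): filterByExpr (minimum count 10), TMM, glmQLFit and glmQLFTest on all genes, Benjamini-Hochberg adjustment over 16222 genes. Standard errors come from log2 CPM between replicates (prior count 2). Genes named beyond the 10 were drawn, per hand-written list, from the up to 4 largest changes that passed with at least 1 CPM and the up to 3 most abundant markers. Genes overlapping a member and the 3 nearest profiles of 2 members were also eligible. Not every eligible gene is named, and a few list genes that did not pass are named as well. The members and lists were chosen with earlier results of these data known. Replicate pairs of a group differed by 3.62 to 10.3 chi-square per degree of freedom, so none was a duplicate. Intervals cover counting error only. Alternatives were DESeq2 1.42.0, RLE, library size alone, 2 other filters, a replicate block and leaving out each library.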

Additional observations from a re-analysis of the deposited data

How the results depend on the processing

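The 5 genes that rose (VEGFA, VEGFB, VEGFC, PGF and ANGPTL4) passed in all 12 alternatives, with VEGFA and ANGPTL4 past both thresholds in each. The 1 gene lower (THBS1) became 0 with RLE size factors, without a low-count filter, with the replicate block and with DESeq2, each time with 1 gene at an unadjusted p under 0.05, and between 0 and 1 when 1 library was left out (0 in 5 of the 6, and then 0 or 1 at an unadjusted p under 0.05). Its log2 fold change then lay between -0.17 and -0.12 (adjusted p up to 0.139 from edgeR), and it was called only without r-CRMP2 replicate 1, so every other library was needed for the call. It was -0.15 with the replicate block (adjusted p = 0.0716 from edgeR). ANGPT1 reversed from 0.01 to -0.30 with library size alone, to -0.0032 with at least 10 counts in every library and to between -0.13 and 0.19 when 1 library was left out. The same-numbered libraries had deviation correlations between -0.03 and 0.0038, so the numbers showed no pairing, and the block changed no other call among the 10 genes. Over all genes, library size alone gave 2171 higher and 8449 lower in place of 4574 and 4875 (489 and 2553 in place of 831 and 1437 past both thresholds), and at least 10 counts in every library gave 577 and 946. List counts were not recomputed with a library left out. Of 156 list counts under the other alternatives, 138 stayed within 1.5 times and 18 moved, most of them with library size alone. The causes were not tested. Depth limits ANGPT2, FLT1 and KDR.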

Other observations

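Among the angiopoietin-like genes under the low-count filter, ANGPTL8, a secreted regulator of lipoprotein lipase activity, was chosen after its values were seen. It had 3, 4 and 3 counts in untreated replicates 1, 2 and 3 and 7, 15 and 9 counts in r-CRMP2 replicates 1, 2 and 3. The groups did not overlap in counts, and the filter left it out of the main test.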
